A study of Mus musculus with 4 samples.

Results

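Amino acid stress and autophagy genes were described in single group 2 innate lymphoid cells (ILC2) of the mouse pancreas, on the first of 4 plates of 384 wells. They comprised the amino acid stress regulators and targets Atf4, Ddit3, Trib3 and Asns, the sestrins Sesn1 and Sesn3, and the autophagy genes Sqstm1, Map1lc3b, Gabarap and Gabarapl2. Of these 10 genes, 8 were found among 11324 gene rows by their symbol. Trib3 and Asns were not analysed here. All cells were from C57BL6J pancreas and carried KIKR, a fluorophore whose emission shifts irreversibly to red on exposure to violet light and so tags cells lit at an earlier time. Photoconverted (KIKR-Red) ILC2 were compared with non-photoconverted (KIKR-Green) ILC2 of the same plate, and empty wells gave the background. The series asks how fasting bears on pancreatic ILC2, but no feeding state or animal is labelled, so photoconversion was the only contrast. The genes were picked with results of these cells in view, the difference of Atf4 between the colours among them, so all values below are descriptions of 1 plate, without a replicate and without a test.

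ILC2 are tissue lymphocytes that make type 2 cytokines and that depend on nutrients from their tissue. When amino acids run short, the kinase GCN2 phosphorylates the translation factor eIF2alpha, bulk translation falls, and translation of the Atf4 messenger is favoured. ATF4 protein then drives genes of amino acid synthesis and transport, Asns among them, and also Trib3 and the stress factor Ddit3. Sestrins restrain the growth kinase complex mTORC1, whose loss of activity releases autophagy, in which small ubiquitin-like proteins of the ATG8 family are coupled to the membrane and the receptor p62 (Sqstm1) brings cargo to them. Because ATF4 is set largely at translation, messenger counts do not measure its activity.

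Plate 1 held 12 photoconverted cells, 151 non-photoconverted cells and 221 empty wells. After a filter of at least 500 genes and under 25% mitochondrial reads, 8 and 98 cells remained. Photoconverted cells were deeper, with a median of 496078 gene reads and 2748.5 genes, against 165391 gene reads and 1637 genes in non-photoconverted cells and 92 genes in empty wells. Each photoconverted cell was therefore also set against the 5 non-photoconverted cells nearest in number of genes (29 distinct cells, median 2718.5 genes), called depth-matched below. A gene counted as detected at 16 reads or more, since few reads also occurred in empty wells. At that limit the match was incomplete, with a median of 1821.5 genes in photoconverted and 1556 in depth-matched cells. Depth-matched cells had a median of 445722 gene reads, below that of photoconverted cells. The photoconverted cell with the most genes (5129) lay above every non-photoconverted cell (at most 4480 genes). The labelled cell type was checked against its markers, and at least 3 of 16 ILC2-like markers were detected in 100 of 106 cells, all 8 photoconverted cells included. Markers of 10 other types were sparse in the table, with 1 to 4 rows per list, too few to check most of these types. Ltb (47.2% of cells) and Cst3 (33% of cells) were the most frequent of these, and the 3 acinar markers were detected in 0 cells. The summed level of the ILC2-like markers ran from 9591 to 20768 reads per 1000000 gene reads (CPM), median 18170, in photoconverted cells, and from 1505 to 39436 CPM, median 12751, in non-photoconverted cells. The part of this marker level in the differences below was not tested.

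Atf4, the transcription factor that executes the amino acid response (chromosome 15, 80255184 to 80257541, mm10), was detected in a larger share of photoconverted than of non-photoconverted cells. The 8 photoconverted cells, in well order, held 360, 89, 71, 270, 11, 94, 158 and 0 reads of Atf4. In non-photoconverted cells the lowest and the median value were 0 reads and the highest was 395 reads. The ranges overlapped fully. Atf4 was detected in 6 of 8 photoconverted cells (75%, exact 95% binomial interval 34.9 to 96.8%), in 22.5% of depth-matched cells, and in 22.4% of the whole non-photoconverted set (14.6 to 32.0%). Empty wells gave 0 of 221, and a count of 0 there leaves room for 1.36%. These intervals hold the counting error of cells alone, and the reads behind them include PCR copies of the same molecule. The gap to depth-matched cells was 52.5 percentage points. Of 5245 genes detected in 5% or more of the cells, 10.5% were 25 points or more higher in photoconverted cells and 4.31% were 25 points or more lower. Members were chosen with this comparison known, so the counts support nothing, and for Atf4 the place among these genes (0.153% lay above it) is no finding.

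Among cells in which Atf4 was detected, the order of the levels depended on the cells set beside the photoconverted ones. The Atf4 level of the 6 positive photoconverted cells ran from 134 to 622 CPM with a median of 185 CPM, against a median of 112 CPM in positive depth-matched cells, and 60.1 to 2334 CPM with a median of 310 CPM in all 22 positive non-photoconverted cells. Averaged over all cells, the level was 197 ± 188 CPM in photoconverted (SD, n = 8 cells) and 142 ± 394 CPM in non-photoconverted cells (SD, n = 98 cells), or 70.4 CPM in depth-matched cells. The log2 ratio of mean CPM after adding 10 was 1.36 against depth-matched cells and 0.45 against all non-photoconverted cells, and the second value was -0.05 without photoconverted cell 1. The difference of the mean log2 values over cells was 2.34, where the median gene stood at 0.35. The median of all 5245 genes was -0.30 on the scale on which Atf4 had 0.45. Scaled by the spike-in reads of each well instead, the Atf4 ratio was 2.12 and the median gene stood at 0.91. When each cell was drawn down to 1000 reads, the expected share of cells with Atf4 was 16.7% in photoconverted and 5.14% in depth-matched cells. The 2 photoconverted cells without a call were cell 5, with 11 reads, and cell 8, which had the fewest genes of the 8 (938) and 0 reads of every member.

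**Figure D1:**
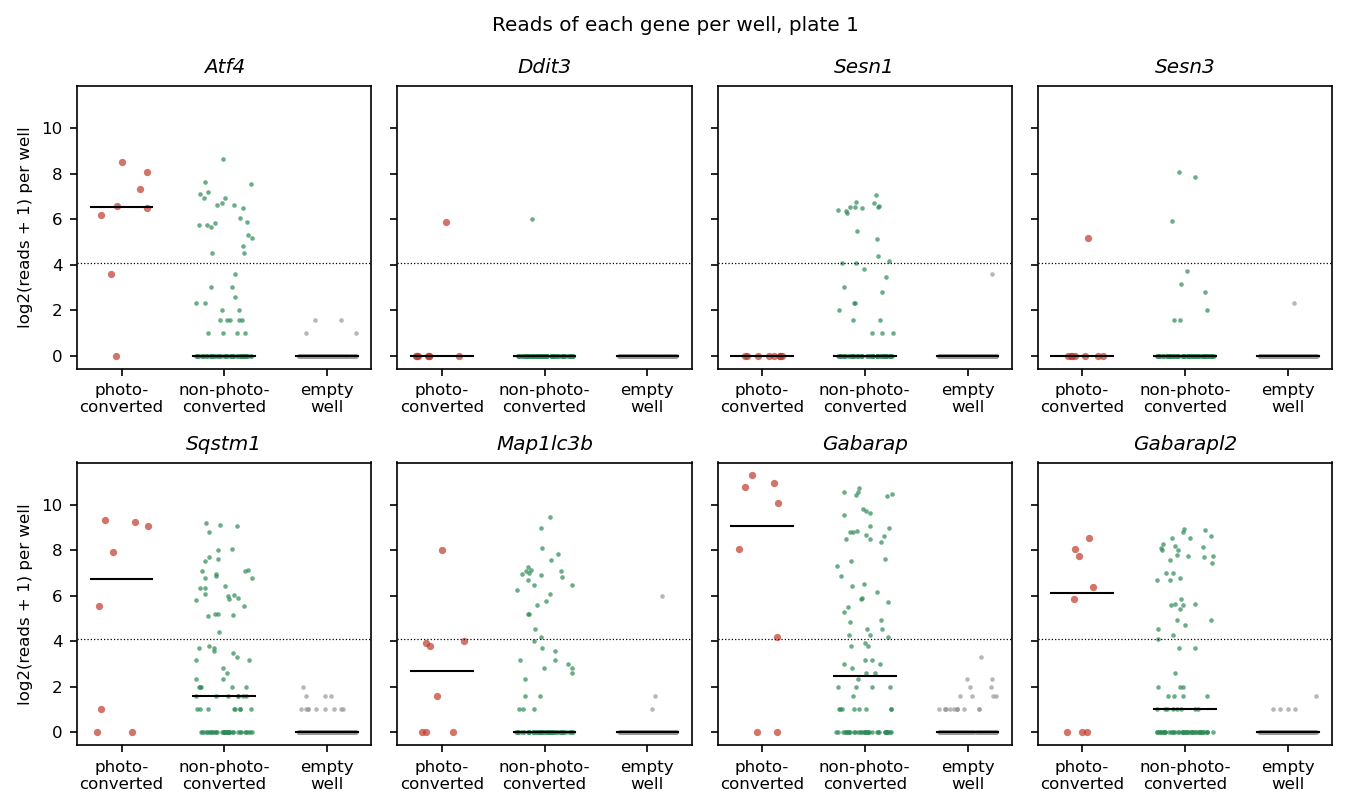
Reads per well on plate 1 as log2(reads + 1), 1 panel per gene, for 8 photoconverted cells, 98 non-photoconverted cells and 221 empty wells. Each point is a well, the bar is the median and the dotted line is 16 reads. Atf4 lies above the line in 6 of 8 photoconverted cells, and Sesn1 is at 0 reads in all 8.

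The best known element through which ATF4 acts is the C/EBP-ATF response element, whose core was searched as TGATGNAA on both strands of the RefSeq promoter windows (GRCm38.p6, 250 bases before to 50 after a start). The core was present in 3.97% of 32851 windows, and in those of Asns and Trib3 among the 10 genes. None of the windows of the 8 genes measured here held it. In Asns it started 23 bases before the start site, and in Trib3 it began at base 15 after it, on the other strand. CCAAT boxes (CCAAT on either strand, present in 37.4% of windows) were found for 4 of the 10 genes, Atf4, Ddit3, Sesn1 and Sesn3, against 41.1% of all genes. TGTTTAC, the core bound by FOXO factors, was present in 3.65% of windows and among the 10 genes only in that of Sesn1, at base 23 after a start site. TCACGTGA, the core of the lysosomal CLEAR element, was present in 0.974% of windows and in 0 of the 10. A match is a run of letters and no evidence of binding. The 250 bases before the start are shown for Asns, with the C/EBP-ATF core in capitals, to show what the element looks like, and for Atf4 and Sesn1, the members with the largest share differences in either direction, with the CCAAT boxes in capitals (ATTGG where the box is on the other strand).
Asns promoter, chr6:7693210-7693459, minus strand: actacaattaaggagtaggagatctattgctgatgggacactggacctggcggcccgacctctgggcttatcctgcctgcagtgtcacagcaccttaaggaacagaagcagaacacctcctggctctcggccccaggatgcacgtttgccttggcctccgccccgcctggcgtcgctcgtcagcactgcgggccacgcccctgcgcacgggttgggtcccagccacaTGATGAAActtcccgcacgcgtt
Atf4 promoter, chr15:80254934-80255183, plus strand: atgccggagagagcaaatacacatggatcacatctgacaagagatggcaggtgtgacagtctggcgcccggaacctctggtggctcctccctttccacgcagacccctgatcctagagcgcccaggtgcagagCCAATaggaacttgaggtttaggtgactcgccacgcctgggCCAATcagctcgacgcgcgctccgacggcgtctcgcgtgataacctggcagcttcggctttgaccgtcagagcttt
Sesn1 promoter, chr10:41810324-41810573, plus strand: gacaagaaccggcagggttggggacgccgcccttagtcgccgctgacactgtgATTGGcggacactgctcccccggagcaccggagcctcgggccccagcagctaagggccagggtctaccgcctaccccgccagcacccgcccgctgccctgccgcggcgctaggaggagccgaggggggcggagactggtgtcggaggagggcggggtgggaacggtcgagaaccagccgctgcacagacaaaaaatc

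Ddit3, which encodes the stress factor CHOP and is induced by ATF4 in prolonged stress (chromosome 10, 127290829 to 127293753), was found in 1 cell of each colour. Photoconverted cell 5 held 58 reads of Ddit3 and the other 7 held 0. In non-photoconverted cells 1 of 98 held it, with 64 reads, and 0 of 221 empty wells did. The share was 12.5% (0.316 to 52.7%) in photoconverted, 2.5% in depth-matched and 1.02% (0.0258 to 5.55%) in all non-photoconverted cells, which is not distinguishable at this number of cells. The non-photoconverted cell with Ddit3 was Atf4-positive, whereas photoconverted cell 5 held 11 reads of Atf4, below the detection limit. Ddit3 and Sesn3 were each detected in under 5% of the cells and so are left out of the counts over measured genes.

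Sesn1, a sestrin known as a target of p53 and FOXO factors (chromosome 10, 41809935 to 41908424), was not detected in photoconverted cells. All 8 held 0 reads of Sesn1, also below the detection limit, whereas non-photoconverted cells held 0 reads at the lowest and the median and 132 reads at the highest. The 0 of 8 leaves room for a share of 37.5%, and Sesn1 was found in 25% of depth-matched and in 17.3% (10.4 to 26.3%) of all non-photoconverted cells. A lower share of Sesn1 is therefore not detectable with 8 cells at 16 reads. Counted at 1 read or more, the shares were 0% in photoconverted, 47.5% in depth-matched and 29.6% in all non-photoconverted cells. At 16 reads, of 2157 measured genes found in 10 to 25% of non-photoconverted cells, 7.74% were likewise detected in 0 of 8 photoconverted cells. The matching value over all genes at 1 read is not given here, so the shares at 1 read stand without a background. In the 17 positive non-photoconverted cells, the level of Sesn1 ran from 26.7 to 772 CPM with a median of 273 CPM. A gene on the same strand, 9930024M15Rik, overlaps Sesn1 in the annotation, so reads of the overlap could be counted to either.

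Sesn3, the sestrin known for induction by FOXO factors (chromosome 9, 14275067 to 14333101), was rare. Photoconverted cell 5 held 35 reads and the other 7 held 0, and 3 of 98 non-photoconverted cells held 59, 227 and 268 reads. The share was 12.5% in photoconverted, 2.5% in depth-matched and 3.06% (0.636 to 8.69%) in all non-photoconverted cells. At 1 read or more the order turned, with 12.5% in photoconverted and 27.5% in depth-matched cells. Cell 5 was thus the source of both rare members among photoconverted cells, while it held 0 reads of Sqstm1, Gabarap and Gabarapl2.

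Sqstm1, which encodes the cargo receptor p62 (chromosome 11, 50199366 to 50210827), was detected somewhat more often in photoconverted cells, within the error of 8 cells. The 8 photoconverted cells held 1, 45, 237, 642, 0, 597, 526 and 0 reads of Sqstm1, against a median of 2 and a highest value of 577 reads in non-photoconverted cells. Sqstm1 reached the limit in 5 photoconverted cells (62.5%, 24.5 to 91.5%), in 47.5% of depth-matched and in 31.6% (22.6 to 41.8%) of the whole non-photoconverted set. Empty wells gave 0 of 221. The depth-matched share lay inside the interval of the photoconverted cells. The mean level was 351 ± 439 CPM in photoconverted (SD, n = 8 cells) and 239 ± 554 CPM in non-photoconverted cells (SD, n = 98 cells). The log2 ratio was 0.54, and -0.13 without photoconverted cell 6. Mrnip overlaps Sqstm1 on the other strand, and whether counting used strand is not given in the sources used here.

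The 3 ATG8 family genes did not all go the same way at 16 reads. For each of them the depth-matched share lay inside the interval of the photoconverted cells. Map1lc3b, which encodes LC3B, the protein most used to mark autophagosomes (chromosome 8, 121590361 to 121598760), was detected in a smaller share of photoconverted cells. Gabarap (chromosome 11, 69991143 to 69994951) was detected in a larger one at 16 reads, within the error of 8 cells, and in 75% of both photoconverted and depth-matched cells at 1 read. Gabarapl2, also known as GATE-16 (chromosome 8, 111940703 to 111953612), was close to depth-matched cells.

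Photoconverted cells held 2, 13, 0, 255, 14, 0, 15 and 0 reads of Map1lc3b. The limit of 16 reads thus lay just above 3 cells with 13 to 15 reads and left 1 positive cell. The share was 12.5% (0.316 to 52.7%) in photoconverted, 35% in depth-matched and 24.5% (16.4 to 34.2%) in all non-photoconverted cells. At 1 read or more it was 62.5% in photoconverted and 50% in depth-matched cells, so the direction of the share rests on the limit. Mean Map1lc3b was lower, at 34.5 ± 54.5 CPM in photoconverted (SD, n = 8 cells) and 186 ± 610 CPM in non-photoconverted cells (SD, n = 98 cells). The log2 ratio of mean CPM was -2.14. It was -0.30 when scaled by spike-in reads, a scale on which the median gene stood at 0.91. The difference of the mean log2 values over cells was -0.29. The median level went the other way, at 9.69 CPM in photoconverted, 1.65 CPM in depth-matched and 0 CPM in all non-photoconverted cells. Map1lc3b overlaps Gm20388 on its strand and Zcchc14 on the other, and 1 empty well held 62 reads of it.

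Gabarap reads in the photoconverted cells were 1077, 1771, 264, 2490, 0, 17, 1986 and 0, against a median of 4.5 and a highest value of 1719 reads in non-photoconverted cells. Photoconverted cells 2, 4 and 7 lay above every non-photoconverted cell in reads, though not in CPM, where the highest non-photoconverted cell reached 12070 CPM. Gabarap reached the limit in 6 photoconverted cells (34.9 to 96.8%), in 55% of depth-matched and 39.8% (30.04 to 50.2%) of all non-photoconverted cells. In empty wells it was at 16 reads or more in 0 of 221, and at 1 to 9 reads in 21. Its mean was 1331 ± 1587 CPM in photoconverted (SD, n = 8 cells), 639 CPM in depth-matched and 705 ± 1671 CPM in all non-photoconverted cells (SD, n = 98 cells). The log2 ratio was 0.91, and 0.29 without photoconverted cell 2. Drawn down to 1000 reads, Gabarap was expected in 49.1% of photoconverted and 28.3% of depth-matched cells.

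Gabarapl2 reads in the photoconverted cells were 83, 264, 0, 374, 0, 213, 56 and 0, against a median of 1 and a highest value of 478 reads in non-photoconverted cells. It was detected in 62.5% (24.5 to 91.5%) of photoconverted, 57.5% of depth-matched and 35.7% (26.3 to 46.0%) of all non-photoconverted cells. Its direction differed between measures: the drawn-down share was 15.8% in photoconverted and 21.9% in depth-matched cells. The log2 ratio of mean CPM was -0.44, and 0.94 when scaled by spike-in reads, next to the median gene at 0.91. Taking the family as a whole, 2, 1, 4 and 1 photoconverted cells held 0, 1, 2 and 3 of the 3 genes, and 33, 40, 17 and 8 non-photoconverted cells did. Among depth-matched cells the shares were 12.5%, 45%, 25% and 17.5%.

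**Figure D2:**
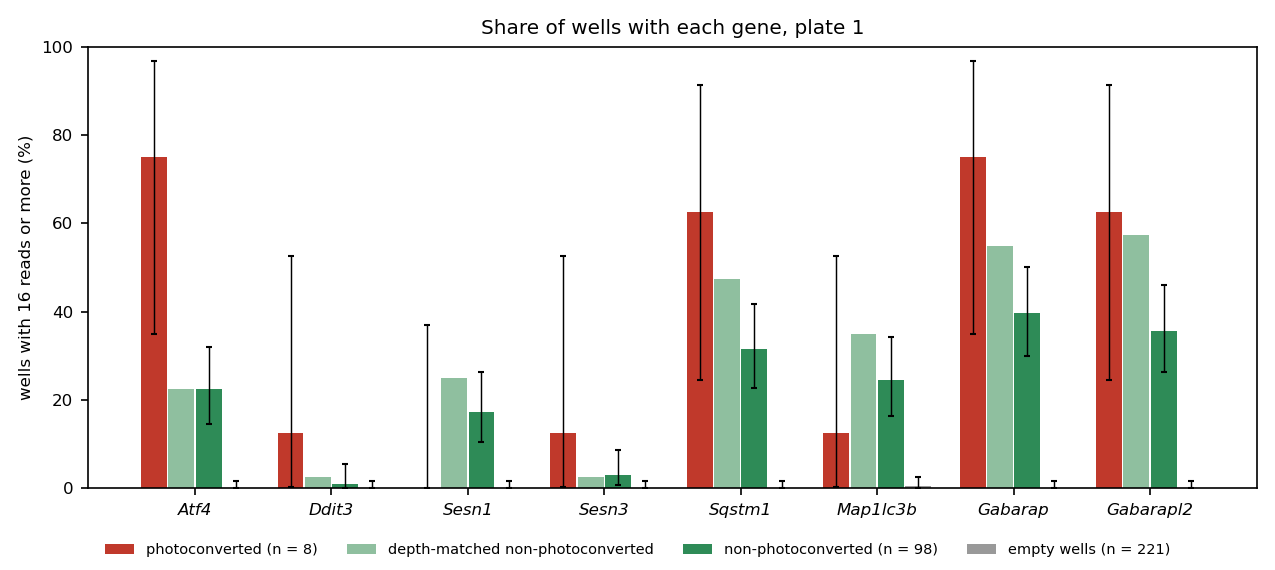
Share of wells of plate 1 with 16 reads or more of each gene, in percent, for photoconverted cells, depth-matched non-photoconverted cells, all non-photoconverted cells and empty wells. Error bars are exact 95% binomial intervals, and the depth-matched set, in which cells repeat, has none. Atf4 stands at 75% in photoconverted, 22.5% in depth-matched and 22.4% in all non-photoconverted cells, and was picked with its difference between the colours in view.

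Over the 8 genes, 6 had a higher and 2 a lower share in photoconverted than in depth-matched cells. Ddit3 and Sesn3, among those higher, were outside the measured genes. Of the 6 members that passed the measured limit, 4 were higher and 2 lower, where 53.4% of all measured genes were higher. Their median difference was 10 percentage points, against 2.5 points for all measured genes. Atf4 was 25 points or more higher and Sesn1 25 points lower, at the limit. Photoconverted cells held a median of 3.5 of the 8 genes, against 2 in depth-matched and 1.5 in all non-photoconverted cells. The median number of all genes at 16 reads or more fell in the same order, at 1821.5, 1556 and 854 per cell. By mean CPM 5 of 8 were higher in photoconverted than in all non-photoconverted cells, Ddit3 and Sesn3 among them through cell 5. Of the measured members, Atf4, Sqstm1 and Gabarap were higher and Sesn1, Map1lc3b and Gabarapl2 lower, where 39.6% of measured genes were higher. A log2 ratio of 1 or more was found for 12.2% of measured genes and for none of the measured members. Ddit3, outside the measured genes, passed it through cell 5. A ratio of -1 or less was found for 29% of genes, and for Map1lc3b, leaving aside Sesn1, which had 0 reads in all photoconverted cells.

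Co-detection with Atf4 was first read within the photoconverted cells. All 6 Atf4-positive cells also held Gabarap, 5 held Sqstm1, 5 held Gabarapl2 and 1 held Map1lc3b, whereas neither of the 2 Atf4-negative cells held any of these 4. Those 2 cells had the fewest genes of the 8, 2189 and 938, so that depth and Atf4 cannot be told apart there.

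In the 98 non-photoconverted cells, where cells of like depth could be set side by side, Gabarap and Sqstm1 were detected about as often with Atf4 as without it at 16 reads. The 22 Atf4-positive cells had a median of 1907 genes, against 1863 in depth-matched Atf4-negative cells (53 distinct cells). Gabarap was detected in 45.5% of Atf4-positive (24.4 to 67.8%) and 43.6% of depth-matched Atf4-negative cells. Sqstm1 was detected in 36.4% (17.2 to 59.3%) and 35.5%, again Atf4-positive cells first. Gabarapl2 stood at 40.9% in Atf4-positive (20.7 to 63.6%) and 31.8% in depth-matched Atf4-negative cells. All 3 matched shares lay inside the intervals. The Gabarap difference of 1.82 points depended on the detection limit and was 20.5 points at 1 read, 15 points at 4 reads and -5 points at 64 reads.

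Sesn1 and Map1lc3b had lower shares in Atf4-positive cells at 16 reads, without a test of the difference. Sesn1 was found in 13.6% of Atf4-positive (2.91 to 34.9%) and 28.2% of depth-matched Atf4-negative cells. Map1lc3b was found in 18.2% of Atf4-positive (5.19 to 40.3%) and 30.9% of depth-matched Atf4-negative cells. The matched shares lay inside both intervals. The Sesn1 difference was -2.05 points at 1 read, and that of Map1lc3b was 7.14 points at 4 reads, the other way. Ddit3 and Sesn3 were each detected in 1 of 22 Atf4-positive cells and in no depth-matched cell. None of the 7 genes differed by 25 points, where 0.648% of all measured genes were that much higher in Atf4-positive cells and 0.267% that much lower. The number higher by any amount was 5 of 7, with Ddit3 and Sesn3 among them through 1 cell each and outside the measured genes. Of the 5 measured members, 3 were higher and 2 lower (median 0.91 points), where 49.7% of measured genes were higher. The level of Gabarap averaged 812 CPM in Atf4-positive and 784 CPM in depth-matched Atf4-negative cells, and that of Sqstm1 189 CPM and 235 CPM in the same order.

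**Figure D3:**
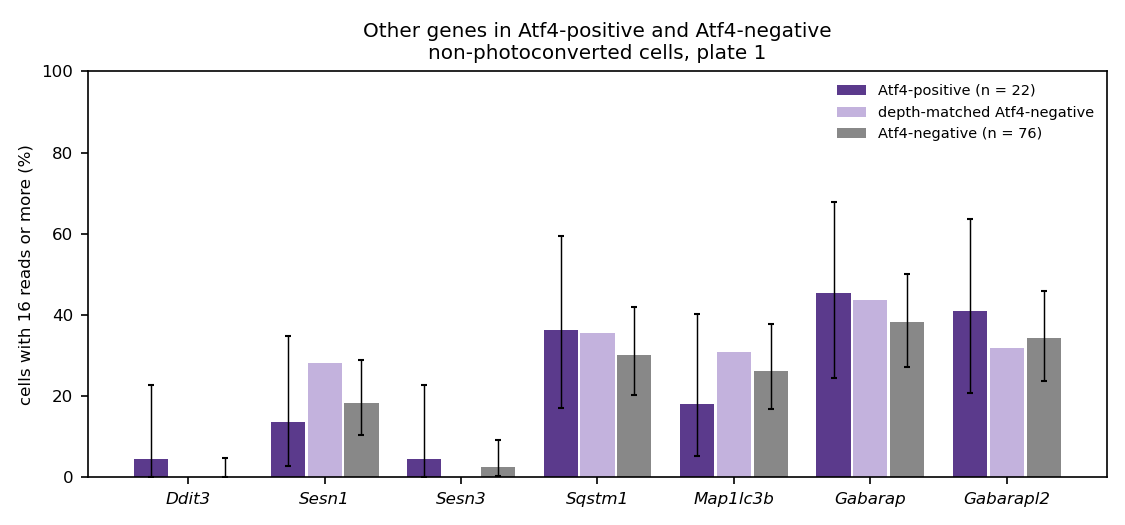
Share of non-photoconverted cells of plate 1 with 16 reads or more of each other gene, in percent, in 22 Atf4-positive cells, their depth-matched Atf4-negative cells and all 76 Atf4-negative cells. Error bars are exact 95% binomial intervals. Gabarap stands at 45.5% and 43.6% in Atf4-positive and depth-matched cells, and Sesn1 at 13.6% and 28.2%.

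The same reading was made for all 30 ordered pairs of the 6 measured members, splitting non-photoconverted cells by each gene in turn. At 10 points or more, the gene was higher in positive cells in 7 pairs and lower in 7, and at 15 points or more it was higher in 4 pairs and lower in 0. The share over all gene pairs was not computed, so these counts stand without a background. Of the 4 pairs, Sesn1-positive cells held Sqstm1 in 58.8%, against 34.1% of their depth-matched negative cells, and Map1lc3b in 41.2%, against 21.2%. Sqstm1-positive cells held Map1lc3b in 38.7%, against 18.7%, and Gabarap-positive cells held it in 35.9%, against 14.9%. All but the first of these 4 pairs read Map1lc3b, whose share difference between the colours changed direction with the detection limit. Apart from pairs split by Atf4, no pair is given here at another detection limit. The 7 pairs that were 10 points or more lower included both directions of Atf4 with Sesn1, both of Atf4 with Map1lc3b and both of Gabarap with Gabarapl2, the last with Gabarapl2 in 43.6% of Gabarap-positive and 56.9% of depth-matched Gabarap-negative cells. Pairs share cells, so that the 2 directions of a pair are no independent readings.

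**Figure D4:**
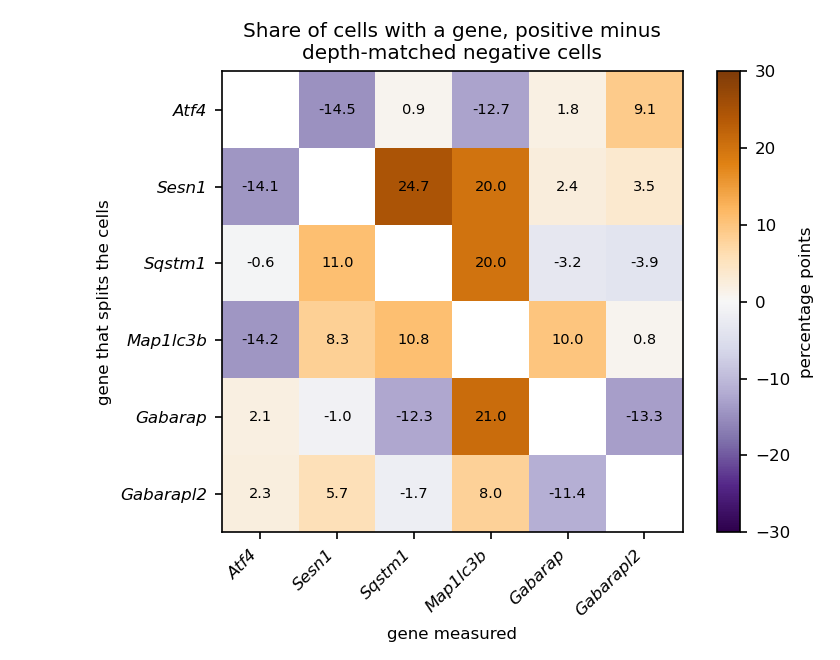
Difference, in percentage points, in the share of non-photoconverted cells that held the gene on the horizontal axis, between cells positive for the gene on the vertical axis and their depth-matched negative cells. Orange is higher in positive cells and purple lower. No background over all gene pairs was computed. Map1lc3b is higher with Sesn1 (20), Sqstm1 (20) and Gabarap (21.0), and Atf4 is lower with Sesn1 (-14.1) and Map1lc3b (-14.2).

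The share of cells with each of the 6 more frequent members was highest in the cells with the most genes. In the 33 non-photoconverted cells with the fewest genes (502 to 1194), the 33 in the middle (1220 to 2026) and the 32 with the most (2067 to 4480), Gabarap was detected in 12.1%, 42.4% and 65.6%. Sqstm1 stood at 15.2%, 27.3% and 53.1%, and Gabarapl2 at 18.2%, 27.3% and 62.5%. Map1lc3b stood at 9.09%, 30.3% and 34.4%, and Sesn1 at 9.09%, 15.2% and 28.1%. Atf4 stood at 12.1%, 27.3% and 28.1% (13.7 to 46.7% among the cells with the most genes), and its mean level was 161, 170 and 92.4 CPM. The median over all measured genes was 3.03%, 9.09% and 21.9%. Ddit3 and Sesn3 were detected only among the cells with the most genes, in 1 and 3 of 32.

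**Figure D5:**
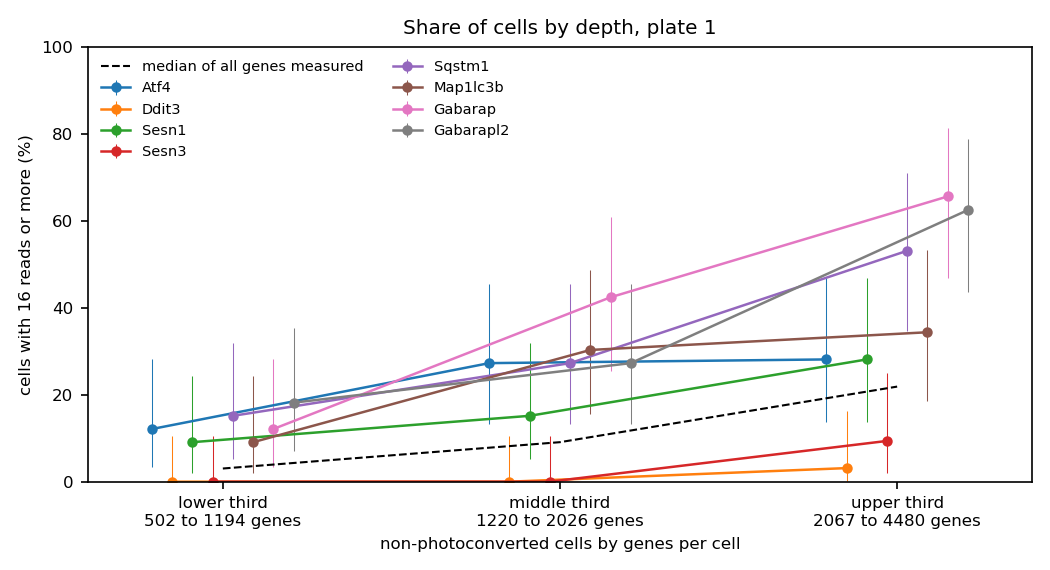
Share of non-photoconverted cells of plate 1 with 16 reads or more of each gene, in percent, in cells grouped from few to many genes per cell (33, 33 and 32 cells). Error bars are exact 95% binomial intervals and the dashed line is the median of all measured genes. Gabarap goes through 12.1%, 42.4% and 65.6%, and Atf4 through 12.1%, 27.3% and 28.1%.

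Other genes of the amino acid response were given from lists chosen with earlier results of these data known. Shares here and in the lists below are at the detection limit, where the depth match was incomplete. Mean levels did not always go the same way as these shares. Counts are of members detected in 5% or more of cells, by share in photoconverted against depth-matched cells, and are to be read against the 53.4% of all measured genes that were higher and the 10.5% that passed 25 points. Of 9 measured partners and targets of ATF4, 4 were higher and 5 lower (median -2.5 points), and 1, Herpud1, an endoplasmic reticulum stress gene named after its values were seen, passed 25 points (5 of 8 cells, against 35%). Psat1, an enzyme of serine synthesis, was detected in 4 of 8 photoconverted cells and 35% of depth-matched cells. Shmt2, a mitochondrial enzyme of one-carbon metabolism, was detected in 1 of 8 and 27.5%, and Cebpb, a partner of ATF4, in 2 of 8 and 40%. By mean level Psat1 went against its share, at 152 CPM in photoconverted and 547 CPM in all non-photoconverted cells. Shmt2 (31.0 and 155 CPM) and Cebpb (74.1 and 866 CPM) were also lower, and Herpud1 (115 and 52.2 CPM) was higher.

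Upstream, the list held eIF2alpha, its kinases and phosphatases, subunits of eIF2B, Gcn1l1 and Impact. Of its 11 measured genes, 6 were higher and 5 lower (median 2.5 points, 0 past 25 points). Eif2ak4, which encodes GCN2, was detected in under 5% of the cells and was not counted. Ppp1r15a, which encodes GADD34, the inducible phosphatase subunit that reverses eIF2alpha phosphorylation, was detected in 6 of 8 photoconverted cells and 57.5% of depth-matched cells. Eif2s1, eIF2alpha itself, was detected in 5 of 8 and 50%, and Eif2ak1, the kinase HRI, in 2 of 8 and 17.5%. By mean level Ppp1r15a went against its share, at 631 CPM in photoconverted and 1102 CPM in all non-photoconverted cells. Eif2s1 (221 and 118 CPM) and Eif2ak1 (212 and 166 CPM) were higher. Of 6 amino acid transporters 3 were higher and 3 lower (median 1.25 points), with 1, Slc38a2, past 25 points higher. Slc38a2, a neutral amino acid transporter, was detected in 7 of 8 photoconverted cells and 60% of depth-matched cells. Slc38a1 was detected in 5 of 8 and 52.5%, and Slc3a2, the heavy chain shared by several transporters, in 5 of 8 and 75%. With cells drawn down to equal reads, the Slc38a2 difference was -3.16 points. Its mean level was 330 CPM in photoconverted and 347 CPM in all non-photoconverted cells. Slc38a1 (334 and 373 CPM) and Slc3a2 (455 and 636 CPM) were also lower by mean level. Of 19 measured aminoacyl-tRNA synthetases and the tRNA exporter listed with them, 13 were higher, 5 lower and 1 equal (median 5 points), with 3 at 25 points or more higher (Aars, Tars and Wars) and 1 lower (Iars). Vars stood at 5 of 8 cells and 60%, Aars at 3 of 8 and 12.5%, and Dars at 2 of 8 and 22.5%. By mean level Vars (85.1 and 239 CPM) and Dars (30.2 and 165 CPM) were lower in photoconverted than in all non-photoconverted cells. Aars (137 and 123 CPM) was higher.

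The unfolded protein response, which shares ATF4 through the kinase PERK, had 11 of 14 measured genes higher, 1 lower and 2 equal in photoconverted cells (median 15 points). Of these 14, 4 were 25 points or more higher. Xbp1, a transcription factor of this response, was detected in 6 of 8 photoconverted cells and 37.5% of depth-matched cells. The chaperone Hspa5 was detected in 6 of 8 and 60%, and the chaperone Calr in 5 of 8 and 47.5%. Manf, a secreted stress protein named after its values were seen, had the largest gap of the list, 6 of 8 against 25%.

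Of 10 genes of initiation and nucleation, 5 were higher, 3 lower and 2 equal (median 3.75 points), with 1 past 25 points higher (Uvrag) and 1 lower (Ulk2). Uvrag, a partner of Beclin 1, was detected in 4 of 8 photoconverted cells and 20% of depth-matched cells, Ulk2, an initiating kinase, in 0 of 8 and 30%, and Vmp1, a membrane protein, in 4 of 8 and 40%. Of 9 genes of the ATG8 family and its conjugation, 4 were higher and 5 lower (median -5 points). Of 11 cargo receptors and NRF2 genes, 5 were higher and 6 lower (median -2.5 points). Bnip3l, a receptor for mitochondria, was detected in 4 of 8 and 70%, Gclc, an enzyme of glutathione synthesis, in 3 of 8 and 17.5%, and Prdx1, a peroxidase, in 5 of 8 and 55%. Of 15 lysosomal genes, 13 were higher, 1 lower and 1 equal (median 12.5 points), with 2 past 25 points. The membrane protein Lamp1 was detected in 5 of 8 photoconverted cells and 42.5% of depth-matched cells, the protease Ctsb in 5 of 8 and 40%, and Laptm5 in 8 of 8 and 92.5%.

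Of 16 genes of mTORC1 and amino acid sensing, 10 were higher, 4 lower and 2 equal (median 8.75 points), with 2 at 25 points or more higher (Mtor and Lamtor2) and 2 lower (Lamtor5 and Sesn1). Rheb, the activator of mTORC1, was detected in 4 of 8 photoconverted cells and 35% of depth-matched cells. Lamtor1, which helps to hold mTORC1 at the lysosome, was detected in 3 of 8 and 20%, and Deptor, an inhibitor of mTOR, in 2 of 8 and 15%. Of 12 FOXO and p53 factors and targets, 7 were higher and 5 lower (median 7.5 points), with 1 past 25 points higher (Cdkn1a) and 2 lower (Txnip and Cdkn1b). Genes named only in such counts, as Tars, Wars, Iars, Mtor, Lamtor2, Lamtor5 and Cdkn1b, were named after their values were seen. Txnip, a brake on glucose uptake, was detected in 1 of 8 and 42.5%, the cell cycle inhibitor Cdkn1a in 5 of 8 and 30%, and Btg2 in 8 of 8 and 92.5%. Between Atf4-positive and depth-matched Atf4-negative non-photoconverted cells, the medians of all these lists lay between -4.55 points (FOXO and p53) and 9.09 points (transporters). Past 25 points there was 1 gene, Foxo1, named after its values were seen, which was detected in 4.55% of Atf4-positive and 32.7% of depth-matched Atf4-negative cells.

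The genes with the pattern most like that of Atf4 were sought among 2950 genes detected in 10 to 90% of the 98 non-photoconverted cells, by the share in Atf4-positive minus depth-matched Atf4-negative cells. They were Rcsd1 (35.5 points), Smc1a, a cohesin subunit (33.6 points), Neb, Mrpl33, a mitochondrial ribosomal protein, and Akap8 (31.8 points each). Rcsd1 was detected in 11 of the 22 Atf4-positive cells and Smc1a in 12. By mean level Smc1a was also higher, at 399 CPM in Atf4-positive and 221 CPM in depth-matched Atf4-negative cells, whereas Rcsd1 was not, at 124 CPM and 140 CPM. These genes were picked for size out of many and overlap with Atf4 in few cells, and no amino acid stress or autophagy gene was among them.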

How the data were processed

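Per the labels' protocols, ILC2 were sorted into plates of 384 wells for SORT-seq, which builds on CEL-seq2. The authors deposited raw read counts per row and well, not counts of molecular identifiers, and a sort record whose red fluorescence intensity has no stated unit per the file headers. The tools named, per the submitters' processing notes, are STAR, STARsolo and edgeR, with mm10. Versions, roles, strand and multiple mapping are not given in the sources used here. Rows were named on plate 1 only, since the deposited row names may not belong to the rows of plates 2 to 4. Rows named as mitochondrial held 5.63% of the reads of plate 1, and 0.0531%, 0.0110% and 0.0204% on plates 2 to 4. Spike-in names covered 43.2%, 0.113%, 44.1% and 21.7% of the reads of plates 1 to 4, which does not set plate 3 apart from plate 1.

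Spike-in and mitochondrial rows were left out of the totals. Cells needed 500 genes and under 25% mitochondrial reads. No significance test was run, because plate 1 gives 1 library per colour and cells are not replicates. Intervals are exact 95% binomial (scipy 1.17.1). The members, lists and settings were chosen with earlier results of these data known. Named genes are the members, the 3 genes of each list with the highest mean CPM, and the 5 most like Atf4. Ties there were broken by the overlap with Atf4 and then by name. The calculation of shares and draw-down was checked on simulated counts. Doublets were not called, as wells held 1 sorted cell. Coordinates are from GENCODE M21, and promoters from RefSeq.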

Additional observations from a re-analysis of the deposited data

Results flagged for a closer look

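Reads of 2 members reached the detection limit in sorted wells that the cell filter had left out. These wells held a median of 29 genes at 16 reads or more, against 2 in empty wells. The share of all genes with such reads was not computed, so the 2 members stand without a background. Sqstm1 had 16 reads or more in 5.26% of these 57 wells (3 wells with 43, 70 and 600 reads, interval 1.10 to 14.6%). It had in 0 of 221 empty wells (exact interval 0 to 1.66%). Gabarap did in 1.75% (1 photoconverted well with 20 reads, interval 0.0444 to 9.39%), likewise with 0 of 221 empty wells. Both intervals overlapped that of the empty wells. Atf4 had at most 7 reads in any of the 57 wells.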

How the results depend on the processing

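The gap of Atf4 between photoconverted and depth-matched cells stayed positive under all 19 alternatives, from 11.6 points drawn down to 1000 reads, where shares are smaller throughout, to 67.5 points with detection at 64 reads, and from 45.7 to 65.7 points leaving out 1 photoconverted cell. Sesn1 held 0 reads in every photoconverted cell, so none of the settings could turn its difference positive and its sign says nothing about stability. Its size ran from -47.5 points at 1 read to -3.80 drawn down. The number of members higher by share, 6 of 8, was 3 at 64 reads and 4 to 6 leaving out 1 photoconverted cell. The number higher by mean CPM, 5, was 3 to 5 leaving out 1 cell (3 without cell 5). The log2 ratio of Ddit3 ran from -0.26 (without cell 5) to 2.05 in the same runs, and was 1.90 with all cells. The number of 7 genes higher with Atf4, 5, was 3 at 64 reads and 3 to 5 leaving out 1 Atf4-positive cell. The cause was not tested. Over all measured genes, 550 were 25 points or more higher, against 192 with 300 genes per cell, 1327 without depth matching and 17 drawn down. No paired analysis was possible because 1 plate was named and cells carry no shared number. The 8 photoconverted cells limit the precision of every share.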
